A study of Mus musculus with 3 samples.

Results

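Bone mineralization genes were followed through single cells of the mouse cochlea, the coiled hearing organ that lies inside bone of the skull. The set comprised 9 genes, of 32285 gene identifiers in the count table: Bglap, Bglap2, Ibsp, Dmp1, Phex, Sp7, Runx2, Alpl and Spp1. They were chosen by name for their part in making and mineralizing bone matrix. All 9 had unique molecular identifiers (UMIs, tags that each count 1 captured RNA molecule), from 1033 UMIs of Sp7 in 395 barcodes to 164574 UMIs of Bglap in 4240 barcodes.

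The study took cochleae of C57BL/6J mice in 3 groups, each pooled from 6 mice into 1 library of single cells. Mice of the HHL group (noise-induced hidden hearing loss) had 110 dB of noise for 2 hours. NIHL mice (noise-induced hearing loss) had 115 dB for 4 hours over 3 days. Tissue was collected 6 hours after the last noise exposure, and control mice heard no noise. All cells stand in 1 table, where a barcode suffix of 1, 2 or 3 marks the library, and no label ties a suffix to a group. The libraries are therefore called library 1, 2 and 3, are placed in no group, and carry no test or p-value. Intervals given below are 95% intervals that cover counting error alone, not differences between mice or dissections.

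A barcode counted as a cell with 500 or more UMIs, 200 or more genes and no more than 20% of UMIs from mitochondrial genes. Libraries 1, 2 and 3 had 16883, 9602 and 10703 such cells, with a median of 5464, 6294 and 8098 UMIs. Barcodes shared between libraries were few: 46, 53 and 31 for the 3 pairs. Cells were placed in classes by marker genes that exclude the 9 members, and a class name means a cell like that type. Blood cell classes held 82.2% of all UMIs. Most stromal cells also carried neutrophil RNA: S100a8 was found in 99.2% and 98.8% of the osteoblast-like cells of libraries 1 and 2 and in all 72 of library 3.

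Bone is laid down by osteoblasts, which secrete a collagen matrix and then mineralize it; some become buried as osteocytes. Runx2 and Sp7 are the transcription factors that osteoblasts need to form. The proteins of Ibsp (bone sialoprotein), Spp1 (osteopontin) and Dmp1 belong to a family of secreted acidic phosphoproteins that bind mineral, and Bglap and Bglap2 encode osteocalcin, a small protein of mature bone. Alpl (tissue-nonspecific alkaline phosphatase) removes pyrophosphate, an inhibitor of mineral growth, and Phex is a membrane peptidase whose loss causes renal phosphate wasting.

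The start regions of 4 members are shown, since the cells that carried these genes differ: Bglap was held almost wholly by osteoblast-like cells, Ibsp was shared with an Adipoq-positive stroma, Spp1 was spread over stroma, and Runx2 had its highest level in a blood cell. Each is the 250 bases before the transcription start in RefSeq, 5′ to 3′ on the strand of the gene, in build GRCm38.p6. The counts were made on GRCm39, so these positions belong to the reference sequences alone. Capitals mark ACCACA, a core sequence that RUNX proteins bind, searched on both strands (TGTGGT on the other).
Bglap, chr3:88384467-88384716, minus strand: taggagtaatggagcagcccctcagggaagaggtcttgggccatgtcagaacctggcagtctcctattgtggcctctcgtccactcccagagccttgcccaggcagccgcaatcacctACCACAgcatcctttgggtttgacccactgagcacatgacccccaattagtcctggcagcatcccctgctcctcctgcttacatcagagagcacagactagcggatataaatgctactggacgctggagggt
Ibsp, chr5:104299037-104299286, plus strand: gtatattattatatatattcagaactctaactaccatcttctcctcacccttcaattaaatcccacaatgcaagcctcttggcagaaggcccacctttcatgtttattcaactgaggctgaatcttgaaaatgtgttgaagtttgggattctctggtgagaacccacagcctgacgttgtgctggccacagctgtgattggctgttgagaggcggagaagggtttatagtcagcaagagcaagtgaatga
Spp1, first of 2 starts, chr5:104434861-104435110, plus strand: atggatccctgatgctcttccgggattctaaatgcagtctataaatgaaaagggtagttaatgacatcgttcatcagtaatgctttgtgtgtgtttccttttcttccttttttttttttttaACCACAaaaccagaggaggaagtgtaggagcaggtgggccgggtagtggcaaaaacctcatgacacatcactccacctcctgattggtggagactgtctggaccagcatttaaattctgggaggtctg
Runx2, chr17:44814628-44814877, minus strand: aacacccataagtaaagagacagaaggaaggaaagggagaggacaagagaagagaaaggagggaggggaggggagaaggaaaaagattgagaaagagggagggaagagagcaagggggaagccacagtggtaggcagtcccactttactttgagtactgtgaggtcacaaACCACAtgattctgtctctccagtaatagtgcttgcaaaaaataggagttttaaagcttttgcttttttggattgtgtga
The match began 132 bases before the start in Bglap, 128 in Spp1 and 80 in Runx2. RefSeq windows were found for 7 of the 9 members, and 4 of these held ACCACA, the fourth being Dmp1 at its second start, 164 bases before it. Among all 27025 genes of that reference, 15.9% held it in a window. A match is a description of letters, and says nothing of binding.

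Members lie on 6 chromosomes. On chromosome 5 the phosphoprotein genes follow each other in the order Dspp, Dmp1, Ibsp, Mepe and Spp1, and on chromosome 3 the osteocalcin genes stand as Bglap3, Bglap2 and Bglap. Alpl is on chromosome 4, Sp7 on 15, Runx2 on 17 and Phex on X.

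Osteoblast-like cells were 277 of 37188 kept cells (119, 86 and 72 in libraries 1, 2 and 3), or 0.745% of cells and 0.806% of UMIs. A cell entered this class with at least 3 of 11 osteoblast and osteocyte markers on, and the median cell had 7. Just inside this minimum were 28 cells with exactly 3 markers, and just outside it 100 ungated cells had 2. Of 504 cells with 3 or more of these markers, 156 were placed in another class, 62 were left out because they also carried markers of blood cells, and 9 were tied. The stromal classes compared most closely with it were 534 fibrocyte-like cells (the supporting cells of the lateral wall, which include strial basal cells here), 625 fibroblast-like cells, and 150 Cxcl12-abundant stromal cells with an Adipoq UMI, the kind that supports blood formation in marrow. A further 493 cells had at least 3 markers of the Cxcl12-abundant list but no Adipoq; they stayed unnamed and are called Adipoq-negative stroma. This class was rich in fibrocyte genes: Coch had a UMI in 88.0% of its cells at 9307 CPM, and the 6 fibrocyte markers summed to 7774, 9731 and 11383 CPM in libraries 1, 2 and 3, with Otos at 0 in libraries 1 and 3. In Adipoq-positive stroma Coch was at 141 CPM and in 13.3% of cells. The part of these genes in the contrasts between both classes was not tested.

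In osteoblast-like cells every member was detected, in 47.7% (Spp1) to 89.9% (Ibsp) of the 277 cells, and 62 cells held UMIs of all 9. Levels are given as CPM, the UMIs of a gene per 1000000 UMIs of the summed class. The class carried 74.2% to 89.8% of all UMIs of Bglap, Bglap2, Ibsp and Sp7, 59.3% of Alpl, 40.9% of Dmp1 and 32.6% of Phex, but 9.24% of Spp1 and 9.20% of Runx2. Against the fibroblast-like class, 9 of 9 members were at least 2-fold higher in osteoblast-like cells; of 12451 genes compared, 5.49% were. The same count was 8 of 9 against fibrocyte-like cells, where the share over all genes was 8.61%. It was 7 of 9 against Adipoq-positive stroma (9.05% of all genes) and 7 of 9 against Adipoq-negative stroma (7.67%). The genes short of it were Spp1 in all 3 of these comparisons, Runx2 against Adipoq-positive stroma and Phex against Adipoq-negative stroma. The count was also 9 of 9 against pericyte-like cells (10.0% of all genes) and, outside stroma, against endothelial-like (11.5%) and Schwann-like cells (12.6%), macrophages (20.6%) and T and NK cells (23.9%). It was 8 of 9 against epithelial-like (11.4%) and melanocyte-like cells (14.9%), where Spp1 fell short, and against plasmacytoid dendritic cells (20.5%), where Runx2 did. Spp1 was 1.59-fold higher in osteoblast-like than in epithelial-like cells (1.52 to 1.67) and 1.30-fold lower than in melanocyte-like cells, though higher in 2 of 3 libraries. Both depend on the cell filter of at least 500 UMIs. With at least 1000 UMIs, 500 genes and at most 10% mitochondrial UMIs, Spp1 fell from 3022 to 787 CPM in melanocyte-like cells. In epithelial-like cells it fell from 1456 to 311 CPM, and the 2-fold count was not repeated with that filter. The members were picked as bone genes, so these counts describe the classes and are not a separate line of evidence for their name.

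**Figure D1:**
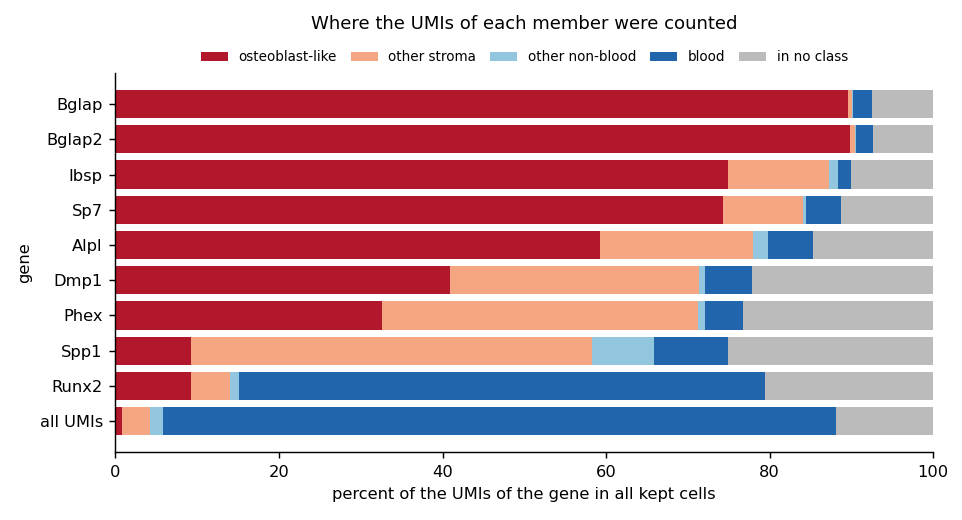
Share of the UMIs of each member, in percent of its UMIs in kept cells (horizontal axis), counted in osteoblast-like cells, other stroma, other non-blood classes, blood classes and cells with no class; the last bar is all UMIs. Osteoblast-like cells fill 89.6% of the Bglap bar and 9.24% of the Spp1 bar, and blood classes fill 64.3% of the Runx2 bar.

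The osteocalcin genes had the sharpest limits. In osteoblast-like cells of libraries 1, 2 and 3, Bglap reached 36849, 71015 and 31490 CPM. The next class by the median over libraries, fibroblast-like cells, had 33.9, 142 and 127 CPM, so the classes lay far apart in every library. Bglap2 followed with 22382, 38962 and 18697 CPM in osteoblast-like cells and 19.6, 99.0 and 118 CPM in fibroblast-like cells. Below the fibroblast-like class, neighbouring classes overlapped over their libraries for both genes. Pooled over libraries, osteoblast-like cells had 49649 CPM of Bglap (49396 to 49904) and 28372 CPM of Bglap2.

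How the UMIs divide between these genes is uncertain. Their GENCODE transcripts are 98.6% identical over 440 bases and identical over the last 100 bases, the end that a 3′ library reads. Bglap3 is 98.0% identical to both over its last 100. Bglap2 stood at 0.607, 0.549 and 0.594 UMIs per Bglap UMI in osteoblast-like cells of the 3 libraries. Across single cells their ranks went together, with Spearman correlations of 0.95, 0.96 and 0.95 over the cells of libraries 1, 2 and 3, and 95.1% of cells with Bglap also had Bglap2. These correlations are descriptions over cells that share a library, and the reads of both genes cannot be told apart over the last 100 bases.

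Low osteocalcin counts were also found in blood cells. Pooled levels of Bglap in 10 blood classes ran from 8.49 to 22.8 CPM. In T and NK cells 7.69% of cells had a Bglap UMI, at a median depth of 5001 UMIs against 7273 in osteoblast-like cells, where 81.2% had one. Over all blood classes of libraries 1, 2 and 3, Bglap stood at 9.98, 27.7 and 5.19 CPM, the same order as in all kept cells (366, 1026 and 153 CPM). Free RNA in the droplets was not measured, and its part in these counts was not tested. Single cells also set some low levels: in fibrocyte-like cells 80.2% of Bglap UMIs came from 1 cell, and in endothelial-like cells 92.8%.

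Among the acidic phosphoproteins, Ibsp had a second class. It was at 14093, 12337 and 15449 CPM in osteoblast-like cells and at 4828, 6113 and 5102 CPM in Adipoq-positive stroma, and the ranges of these classes did not overlap. Pooled, osteoblast-like cells were 2.56-fold higher (2.49 to 2.63). The share of cells with an Ibsp UMI was alike, 89.9% and 90.7%, against 2.23% in T and NK cells. In Adipoq-negative stroma Ibsp was at 88.0, 52.3 and 47.0 CPM and found in 5.07% of cells. Adipoq was a required gene of the first class and absent by definition from the second. That requirement was set after values of the members, Ibsp included, had been seen, and without it Ibsp in Cxcl12-abundant stroma was at 1523 CPM in place of 5343 CPM.

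By the median of 3 libraries, endothelial-like cells stood next for Ibsp, at 464, 302 and 4.34 CPM. In library 3 they lay below fibroblast-like (318 CPM), fibrocyte-like (243 CPM) and Adipoq-negative cells (47.0 CPM). Within the endothelial-like class, cells again differed by Adipoq. Of 229 endothelial-like cells, 26 had an Adipoq UMI (19, 6 and 1 by library). These 26 carried 506 of the 519 Ibsp UMIs of the class, with 364, 142 and 0 in libraries 1, 2 and 3. Ibsp was found in 23 of the 26, and the 1 such cell of library 3 had none. Pooled, the 26 reached 1086 CPM against 6.63 CPM in the other 203. All 8 markers of the Cxcl12-abundant list were seen in the endothelial-like class of each library, with summed levels of 3807, 3218 and 449 CPM, in the same order as Ibsp. Their part in this value was not tested beyond the split by Adipoq, which was made after the values were seen.

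Spp1 was high in several stromal classes. Adipoq-positive stroma had 2858, 5426 and 4086 CPM, Adipoq-negative stroma 3509, 6016 and 3643 CPM, and fibrocyte-like cells 2859, 7176 and 2881 CPM. Osteoblast-like cells had 1702, 1535 and 5070 CPM. In libraries 1 and 2 the osteoblast-like level was the lowest of these 4, and in library 3 it was the highest, so the 4 ranges overlapped. Pooled, Spp1 was 1.82-fold (1.76 to 1.90), 1.96-fold (1.90 to 2.02) and 1.82-fold (1.77 to 1.87) lower in osteoblast-like cells than in these 3 classes, each time with library 3 going the other way. Fibrocyte-like cells held 21.2% of all Spp1 UMIs and Adipoq-negative stroma 17.7%.

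The share of cells with Spp1 was 90.7% in Adipoq-positive stroma, 87.0% in Adipoq-negative stroma, 69.7% in fibrocyte-like cells, 47.7% in osteoblast-like cells and 31.4% in fibroblast-like cells, with 7.20% in T and NK cells. Epithelial-like cells had 1345, 965 and 2419 CPM, and 87.2% of their Spp1 in library 2 came from 1 cell. Melanocyte-like cells, counted with the strial intermediate cells, had 292, 4429 and 185 CPM, so that library 2 alone gave them a high level; without it they had 217 CPM.

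Dmp1, which osteocytes are known for, was highest in osteoblast-like cells with 1242, 821 and 1142 CPM. Its next classes were Adipoq-negative stroma at 583, 369 and 350 CPM, fibrocyte-like cells at 232, 225 and 133 CPM and fibroblast-like cells at 94.6, 84.1 and 114 CPM. None of these 4 overlapped the class above it. Adipoq-positive stroma had almost none, 19.9, 6.67 and 1.90 CPM, so that Dmp1 and Ibsp stood in opposite order between the Adipoq classes. Cells with a Dmp1 UMI were 63.5% in the osteoblast-like class, 54.0% in Adipoq-negative stroma, 4.00% in Adipoq-positive stroma and 0.993% in T and NK cells.

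**Figure D2:**
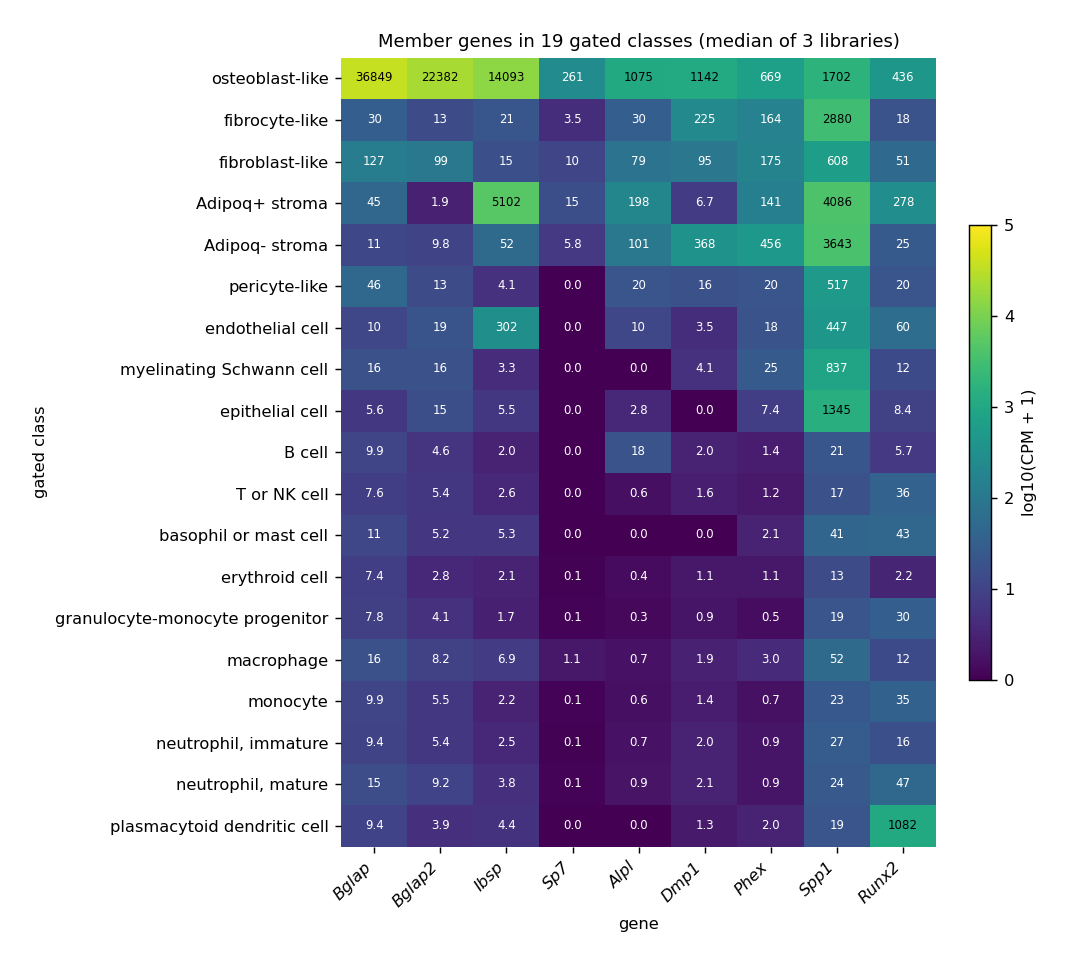
Level of each member (columns) in the 19 classes that had 20 or more cells per library (rows), as the median CPM of 3 libraries printed in each square, with colour on a log10(CPM + 1) scale. To be read down a column, since levels of different genes are not on 1 scale: Bglap stands at 36849 in osteoblast-like cells and 127 in the next class, whereas Spp1 is high in 4 stromal classes and Runx2 is highest in plasmacytoid dendritic cells.

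Of the enzymes, Alpl was at 1075, 1249 and 875 CPM in osteoblast-like cells. Adipoq-positive stroma (199, 270 and 79.9 CPM) lay below with no overlap, and Adipoq-negative stroma (162, 101 and 71.0 CPM) and fibroblast-like cells (78.5, 75.5 and 148 CPM) overlapped with it. Fibrocyte-like cells had 31.2, 27.1 and 29.6 CPM. Melanocyte-like cells had 94.1 CPM from 52 UMIs, with an Alpl UMI in 40.0% of cells.

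Phex ran differently. Osteoblast-like cells had 1017, 669 and 638 CPM and Adipoq-negative stroma 397, 456 and 527 CPM, which did not overlap but came within 1.71-fold of each other when pooled (1.60 to 1.83). Fibroblast-like cells followed with 116, 216 and 175 CPM, fibrocyte-like cells with 198, 164 and 101 CPM, and Adipoq-positive stroma with 258, 103 and 141 CPM; these 3 overlapped. A Phex UMI was found in 83.8% of osteoblast-like cells, 74.9% of Adipoq-negative stroma and 0.993% of T and NK cells. In all, 38.7% of Phex UMIs were in stroma other than osteoblast-like cells and 32.6% in the osteoblast-like class.

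The transcription factors differed most from each other in where they were found. Sp7, which acts after Runx2 in osteoblasts, was at 295, 261 and 183 CPM in osteoblast-like cells. Adipoq-positive stroma had 14.9, 36.7 and 13.3 CPM and fibroblast-like cells 8.92, 10.3 and 12.2 CPM. Pooled blood classes ran from 0 to 0.562 CPM. Osteoblast-like cells held 74.2% of all Sp7 UMIs.

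Runx2 had its highest level outside bone cells. Plasmacytoid dendritic cells, which make type I interferon and in which Runx2 is a known regulator, had 1082, 1098 and 696 CPM. Osteoblast-like cells had 436, 411 and 458 CPM, below the former in every library, and the pooled difference was 2.27-fold (2.12 to 2.42). Adipoq-positive stroma followed at 278, 354 and 173 CPM. A Runx2 UMI was present in 97.1% of the 379 plasmacytoid dendritic cells, 84.8% of osteoblast-like cells, 72.0% of Adipoq-positive stroma, 20.1% of T and NK cells and 3.65% of erythroid cells. Over all blood cells Runx2 was at 44.1, 28.6 and 15.8 CPM. Blood classes held 64.3% of its UMIs, of which plasmacytoid dendritic cells alone had 19.1% of the total, monocytes 12.3% and mature neutrophils 11.9%. For the other 8 members blood classes held 1.69% to 8.98%.

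Between libraries, osteoblast-like cells were compared gene by gene with a size rule of 2-fold and at least 20 summed UMIs. Library 2 over library 1 gave no member past 2-fold, where 2.85% of 8888 genes were higher and 4.25% lower. Bglap came nearest at 1.93-fold (1.91 to 1.95) and Bglap2 at 1.74-fold. Library 3 over library 1 gave Spp1 alone, 2.98-fold higher (2.82 to 3.15), with 6.85% of 8223 genes higher and 4.8% lower. Library 3 over library 2 gave Spp1 3.30-fold higher (3.12 to 3.5), Bglap 2.25-fold lower (2.22 to 2.29) and Bglap2 2.08-fold lower (2.04 to 2.13), where 8.97% of 8206 genes were higher and 4.5% lower. The median log2 ratio of the 9 members was -0.15, -0.23 and -0.07 in the 3 comparisons, and that of all genes was -0.10, 0.04 and 0.14. In summed CPM, Ibsp, Dmp1, Alpl, Phex, Runx2 and Sp7 stayed under 2-fold in each, which does not hold for the median cell of all of them (below).

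**Figure D3:**
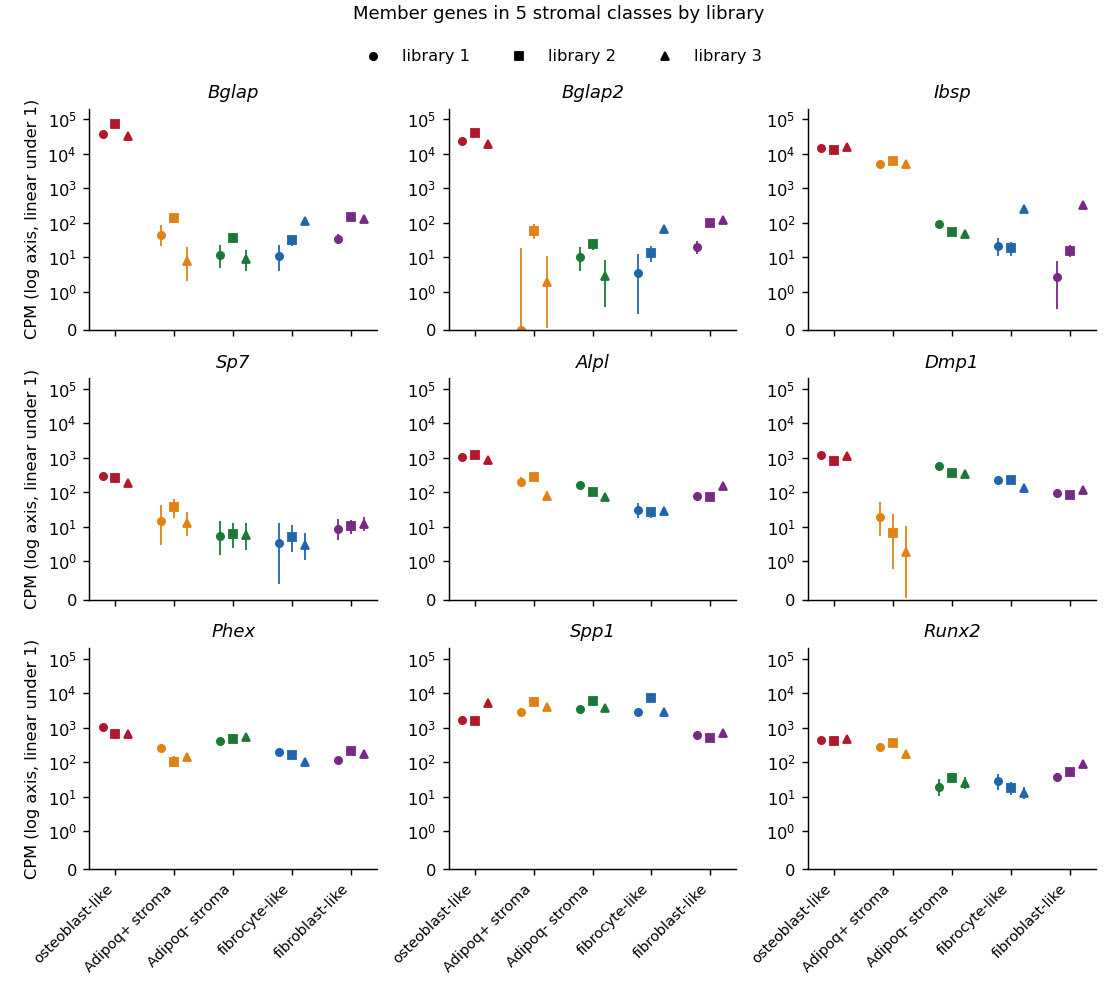
CPM of each member in 5 stromal classes (horizontal axis) for libraries 1, 2 and 3, with 95% Poisson bars for counting error; the vertical axis is logarithmic above a linear stretch near 0. Spp1 in osteoblast-like cells is at 1702, 1535 and 5070 CPM, and Ibsp falls from Adipoq-positive stroma (4828 to 6113 CPM) to Adipoq-negative stroma (47.0 to 88.0 CPM).

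The make-up of the osteoblast-like class differed between libraries too. Ifitm5, a membrane protein gene that marks osteoblasts, had a UMI in 85.7%, 83.7% and 52.8% of the class in libraries 1, 2 and 3. The median number of markers was 7, 8 and 5, and 5, 5 and 18 cells had exactly 3. Coch, a fibrocyte gene, was at 1046, 413 and 4286 CPM, and Mgp, an inhibitor of mineralization, at 223, 225 and 1860 CPM. The 6 fibrocyte markers summed to 3900, 3337 and 5614 CPM; Otos was at 0 in library 3 and each of the 6 was seen in libraries 1 and 2. Markers of fibroblasts summed to 4073, 4707 and 2856 CPM and those of mature neutrophils to 774, 692 and 206 CPM. Pooled over libraries, the collagen gene Col2a1, no gate marker, had a UMI in 84.1% of the class, at 3199 CPM. It was at 171 CPM in Adipoq-negative stroma, 182 CPM in fibrocyte-like and 23.7 CPM in fibroblast-like cells.

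With only the 102, 72 and 38 cells that had an Ifitm5 UMI, a restriction chosen after the values were seen, Spp1 was at 1432, 1275 and 5135 CPM. Library 3 was 3.59-fold and 4.03-fold over libraries 1 and 2, so the difference in Spp1 was as large in these cells. Bglap was at 38273, 74658 and 40616 CPM and Bglap2 at 23201, 41002 and 24269 CPM. Library 3 over library 2 was then -0.88 for Bglap and -0.76 for Bglap2 on the log2 scale, under 2-fold, and library 2 stood above both others. In the 34 cells of library 3 without an Ifitm5 UMI, 94.1% had Coch, Spp1 was at 4877 CPM and the median cell had no Bglap.

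Spp1 in the other stromal classes ran in another order. In fibrocyte-like cells library 2 was 2.51-fold over library 1 (2.38 to 2.65) and library 3 was 2.49-fold under library 2 (2.41 to 2.58), where 5.11% of 8795 and 4.51% of 10265 genes passed in those directions. In Adipoq-negative stroma and Adipoq-positive stroma library 2 was also the highest for Spp1. Bglap was the other gene of fibrocyte-like cells past 2-fold in library 2 over library 1, and 4.98% of all genes were lower there. Library 3 had Bglap, Bglap2 and Ibsp higher than library 1 (6.25% of all genes higher) and higher than library 2 (3.79%), and Runx2 lower than library 1 (7.01% lower). In library 3 of this class 1 cell held 95.1% of the Bglap UMIs, 1 held 95.4% of the Bglap2 UMIs and 1 held 82.6% of the Ibsp UMIs. Without its top cell, pooled Ibsp of fibrocyte-like cells was 31.3 CPM in place of 138 CPM.

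Adipoq-positive stroma had few cells, and 3 of the 9 members had too few UMIs to compare between libraries 1 and 2. Alpl in library 3 (79.9 CPM) was 2.49-fold under library 1 (1.57 to 3.93) and 3.38-fold under library 2 (2.30 to 5.04). Runx2 in library 3 was 2.04-fold under library 2, and Phex in library 2 was 2.49-fold under library 1. Bglap rested on 9, 40 and 4 UMIs in libraries 1, 2 and 3, and passed 2-fold upward in library 2 over 1 and downward in library 3 over 2. Over all genes of this class, 6.46% were higher and 6.5% lower in library 2 than in library 1, 10.8% higher and 7.53% lower in library 3 than in library 1, and 9.11% higher and 6.43% lower in library 3 than in library 2. Ibsp differed by under 2-fold for every pair of libraries.

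In Adipoq-negative stroma Alpl was again lowest in library 3, 2.28-fold under library 1 (1.69 to 3.10), where 4.28% of all genes were higher and 4.57% lower. Bglap (8, 41 and 9 UMIs) and Bglap2 (7, 27 and 3 UMIs) passed 2-fold in library 2 over library 1 (4.37% of all genes higher, 4.88% lower), and downward in library 3 over library 2 (3.8% higher, 3.56% lower). Bglap in blood cells was likewise highest in library 2.

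Fibroblast-like cells had Ibsp, Sp7 and Bglap2 in 5.28%, 5.60% and 8.80% of cells, and Phex and Spp1 in 30.2% and 31.4%. Bglap had 38, 248 and 198 UMIs in libraries 1, 2 and 3, in 10.0%, 27.0% and 9.62% of cells, and 1 cell held 49.2% of those in library 2. Ibsp had 3, 27 and 495 UMIs, in 1.67%, 6.49% and 6.92% of cells. Library 2 over library 1 had 3 members 2-fold or more higher, Bglap, Bglap2 and Ibsp (3.9% of all genes higher, 2.95% lower). Library 3 over library 1 had 4, with Runx2 added at 2.42-fold (1.70 to 3.52; 4.38% higher, 3.99% lower), and library 3 over library 2 had Ibsp alone (3.36% higher, 3.88% lower). In library 3, 18 cells carried all 495 Ibsp UMIs.

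Single osteoblast-like cells varied widely. The median cell had 35383, 66761 and 772 CPM of Bglap in libraries 1, 2 and 3, and the middle 50% of cells ran from 11190 to 51272, from 24810 to 86080 and from 0 to 42879 CPM. For Spp1 the median cell had 0, 0 and 242 CPM, and the third quartile was 1587, 376 and 5241 CPM, so that a minority of cells carried most of it. Ibsp was more even, with medians of 11023, 10200 and 6174 CPM. The median cell was also lowest in library 3 for Dmp1 (370, 278 and 36.6 CPM), Alpl (918, 1117 and 293 CPM) and Sp7 (239, 226 and 92.4 CPM). For Phex it had 818, 521 and 567 CPM and for Runx2 394, 394 and 378 CPM. The median cell held UMIs of 8, 8 and 5 of the 9 members.

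Within the class, levels of Spp1 and Ibsp tended to run in opposite order over cells, though 82.6% of cells with Spp1 also had Ibsp. Over cells of libraries 1, 2 and 3 their Spearman correlation was -0.52, -0.27 and -0.49. In cells with an Ifitm5 UMI it was -0.43, -0.15 and -0.37. Spp1 went up with Dmp1, at 0.55, 0.30 and 0.40, and, over all cells of the class, down with Alpl, at -0.41, -0.32 and -0.23. With Ifitm5 cells alone these were 0.56, 0.39 and 0.52 for Dmp1 and -0.33, -0.30 and 0.01 for Alpl, so the latter relation was not seen in library 3. Ibsp went up with Alpl, at 0.53, 0.58 and 0.57. Dmp1 against Alpl was -0.44, -0.24 and -0.02. With Ifitm5 cells alone it was -0.44, -0.36 and -0.06, so this relation was not seen in library 3 either. Bglap and Dmp1 had no steady relation, at 0.00, 0.34 and 0.72. All are descriptions over cells of 1 library, which share a library and a fixed total, and none carries a p-value.

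Adipoq-positive stroma did not have the inverse order. There, the correlation of Spp1 and Ibsp was 0.23, 0.09 and 0.38 by library. UMIs of both genes were in 125 of 150 cells. Of the cells with Ibsp, 91.9% had Spp1, near the share in the whole class. In osteoblast-like cells 109 of 277 had both, 140 had Ibsp alone and 23 Spp1 alone. Here 43.8% of cells with Ibsp had Spp1, somewhat below the share in the whole class. Counts of cells with both genes depend on how often each gene was found, so they do not show an order by themselves. In Adipoq-negative stroma, 345 of 493 cells had both Spp1 and Phex and 230 had both Dmp1 and Phex. Ibsp was rare there: 22 cells had it with Spp1 and 3 had it without. Of the cells with Ibsp, 88.0% had Spp1, near the share in the whole class.

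**Figure D4:**
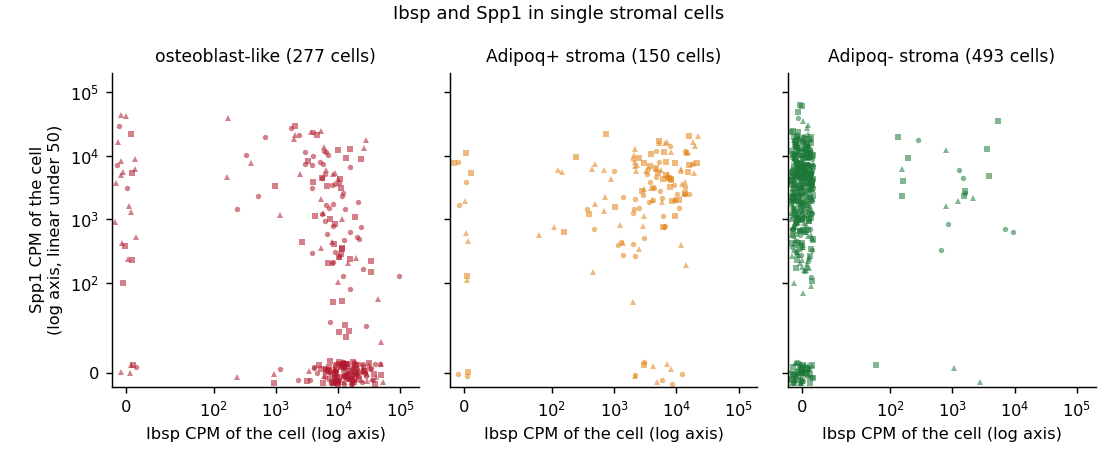
Spp1 against Ibsp in CPM per cell on logarithmic axes for 277 osteoblast-like cells, 150 cells of Adipoq-positive stroma and 493 cells of Adipoq-negative stroma; circles, squares and triangles are libraries 1, 2 and 3, and cells at 0 are spread along the axis for view. Both genes were found in 125 cells of the middle panel, and the right panel lies almost wholly at 0 for Ibsp.

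Of 33 further genes of mineralization, matrix and bone cell control, 9 were themselves gate markers and were not counted. Of the other 24, 13 had at least 100 CPM in osteoblast-like cells, and 10 were at least 2-fold above all of the 4 other stromal classes; of 9599 genes, 3.86% were. Among matrix genes these were Col1a1 (18087 CPM) and Col1a2 (17391 CPM), the chains of type I collagen, with Sparc (13432 CPM), a collagen-binding matrix protein, and Bglap3 (1144 CPM). Col1a1 had 2497 CPM in fibroblast-like cells and 37.9 to 154 CPM in the other 3. Among phosphate genes they were Ank (225 CPM), which exports pyrophosphate, and Fgf23 (10.8 CPM), the phosphate hormone. Fam20c, the kinase of secreted phosphoproteins, was at 173 CPM against 11.7 to 32.5 CPM in those 4 classes. The last were Mef2c (1285 CPM), Dkk1 (11.8 CPM) and Tmem119 (437 CPM).

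Others with at least 100 CPM were not set apart. Mgp had 558 CPM in osteoblast-like cells and 5600 CPM in fibroblast-like cells, and Tnfrsf11b, the decoy receptor that restrains osteoclasts, had 397 CPM against 883 CPM in fibrocyte-like cells. Atf4 (182 CPM), Irx5 (173 CPM) and Fgfr1 (659 CPM) also missed 2-fold over at least 1 class. Gate markers on the list included Dlx5 at 115 CPM, Omd at 557, Pth1r at 645, Ifitm5 at 996 and Smpd3 at 1461. Sost, the WNT inhibitor of osteocytes, had 4 UMIs in the class and Phospho1 3. Dspp had 0, which allows up to 1.24 CPM.

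Genes with the most similar pattern were ranked by Pearson correlation of log2(CPM + 1) over 58 units of class and library, among 15655 genes. Nearest to Bglap were Bglap2 (0.93), Col22a1 (0.91, a gate marker) and Ppef1 (0.87). Ibsp was nearest to Ackr4 (0.93), 9130024F11Rik (0.91) and Srpx2 (0.90), and Sp7 to Itga11 (0.93), Fap (0.90) and Srpx2 (0.89). Spp1 was nearest to Mme (0.94), Ltbp3 (0.94) and Zfhx4 (0.94), and Dmp1 to Lamc3 (0.91), Itga10 (0.90) and Col2a1 (0.89). Alpl ran most like Tnfrsf19 (0.94), Ptgis (0.90) and Twist1 (0.90), and Phex most like Pdgfra (0.95, a gate marker), Fbn2 (0.95) and Gxylt2 (0.93). Runx2 had no near match: Eepd1 was at 0.73, Dap at 0.65 and Rasa3 at 0.64.

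Between members the same measure was 0.93 for Bglap and Bglap2, 0.85 for Alpl and Sp7 and 0.84 for Phex and Dmp1. Next were 0.83 for Bglap and Sp7, 0.82 for Alpl and Phex, 0.81 for Spp1 and Phex and 0.81 for Ibsp and Sp7. Pairs with Runx2 ran from 0.19 with Spp1 to 0.54 with Ibsp. Spp1 stood at 0.39 with Bglap and 0.37 with Bglap2. These units share libraries, and the values are descriptions with no p-value.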

How the data were processed

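RNA of single cochlear cells was measured in 3 libraries of 10x 3′ gene expression, per the labels' protocols. The deposited counts are UMIs per gene and barcode from Cell Ranger 7.1.0, per the file headers, on GRCm39, per the submitters' processing notes; the sources used here do not give the settings for calling cells. Kept UMIs were raw: none was corrected for free RNA, and no doublet caller was run. Libraries had 132576349, 93048140 and 146324872 UMIs.

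A marker was on with at least 1 UMI and 2 times its mean share over kept cells. A class needed 3 markers on, and 3 classes also needed named genes (Adipoq for Cxcl12-abundant stroma, Pecam1 or Cldn5 for endothelial-like cells, Coch, Otos or Otor for fibrocyte-like cells). The list with the highest share of markers on gave the class. Cells with blood and non-blood markers (555) and ties (154) were left out, and 3229 had no class. The members and lists were chosen with earlier results of these data known, and the scoring rule and needed genes after marker and member values were seen.

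UMIs were summed per class and library and given as CPM with exact Poisson intervals, shares of cells with Clopper-Pearson intervals, and ratios with conditional binomial intervals; counts of 0 have a floor of 3 counts. All members are named, with the 3 genes of most similar pattern for each and listed pathway genes of at least 100 CPM; pathway genes below that are named only where they passed the 2-fold rule or were near 0, chosen after their values were seen. A further listed gene is not reported here. TMM factors came from edgeR 4.0.16 in R 4.3.3; all else ran in Python 3.11.15 with pandas 2.3.3, scipy 1.17.1, numpy 2.4.6 and matplotlib 3.10.9, tested on simulated data. Alternatives were stricter cell filters, 4 markers, cells with mixed markers kept, thinning to 1000 UMIs, means over cells, TMM factors and each library left out. Another 3 were added after seeing the data: no needed genes, no top cell, and osteoblast-like cells with Ifitm5 alone. Thinned CPM levels were expectations, which equal the mean over cells of 1000 or more UMIs, and no counts were drawn.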

Additional observations from a re-analysis of the deposited data

How the results depend on the processing

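Against 49649 CPM of Bglap in osteoblast-like cells, stricter cell filters gave 50058, 4 markers 48856, keeping cells with mixed markers 48487, thinning 38067 and the mean over cells 38144. Without the top cell it was 49348 and with Ifitm5 cells alone 54183; without library 1, 2 or 3 it was 57795, 35003 or 54314. Ibsp in Adipoq-positive stroma (5343 CPM) was 4896 with 4 markers, 4446 with mixed cells kept, 5720 thinned, 5648 as a mean over cells and 5178 without the top cell; leaving out each library gave 5026 to 5597. With no Adipoq required it was 1523 CPM, since the class then takes in the Adipoq-negative cells. The share of Bglap UMIs in osteoblast-like cells (89.6%) was 89.7% with stricter filters, 90.5% with 4 markers and 90.7% with mixed cells kept, and 89.9%, 88.1% and 90.1% without library 1, 2 and 3. That of Runx2 in plasmacytoid dendritic cells (19.1%) was 14.4% with 4 markers and 19.9% with mixed cells kept, and 14.7% to 21.4% with each library left out.

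The log2 ratio of Bglap in library 2 over library 1 (0.95) was 0.87 with mixed cells kept, 0.96 with Ifitm5 cells alone and 1.05 with TMM factors, which passes 2-fold. That of Spp1 in library 3 over library 1 (1.58) was 1.46 with 4 markers and 1.84 with Ifitm5 cells alone. Of 27 library ratios in 162 settings, 4 changed their side of 2-fold and 0 changed direction. Those not given above were Bglap and Bglap2 in library 3 over library 2, at -0.88 and -0.76 with Ifitm5 cells alone, and Bglap2 at -0.97 with mixed cells kept. Among 28 CPM levels in 286 settings 24 values moved past 1.5-fold. Of these, 4 were thinned levels and 5 were means over cells, which are nearly the same measure. Among 14 shares in 98 settings 6 moved as far, and the cause was not tested for levels or shares. Levels that moved include Spp1 in epithelial-like cells, 1456 CPM and 311 with stricter filters. Ibsp in fibrocyte-like cells, 138 CPM, was 18.8 without library 3 and 31.3 without the top cell. In endothelial-like cells Ibsp (214 CPM) was 91.9 without library 1 and 403 without library 3. Bglap in fibroblast-like cells (109 CPM) was 528 with mixed cells kept, and Alpl in melanocyte-like cells (94.1 CPM) 61.1 with stricter filters.

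No paired analysis was possible because each library is 1 sample and no label ties a library to a group. Classes rest on few markers for many cells: exactly 3 in 400 of 534 fibrocyte-like cells and 321 of 493 Adipoq-negative cells.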

Other observations

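Low counts of Alpl and Bglap3 were also found outside stroma. Alpl was found in 7.81% (6.20 to 9.68) of 973 B-lineage cells, at 17.9, 24 and 10.7 CPM by library and at a median depth of 3313 UMIs. In T and NK cells, at a median depth of 5001 UMIs, it was found in 0.372% of 806 cells. With every cell thinned to 1000 UMIs the shares were 1.03% and 0.113%. Bglap3 had 28, 1 and 57 UMIs in epithelial-like cells of libraries 1, 2 and 3, against 4, 12 and 1 of Bglap, so library 2 went the other way, whereas in osteoblast-like cells it had 0.0230 UMIs for each Bglap UMI.

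The 10 osteoclast-like cells, the cells that resorb bone, had 72 Spp1 UMIs (216 CPM, 169 to 272), 3 of Bglap and 0 of Bglap2, Dmp1, Phex and Sp7. The 8 chondrocyte-like cells had 282 Spp1 UMIs (4099 CPM, 3635 to 4607) and 0 of Bglap, Bglap2, Ibsp, Alpl and Sp7, and both classes are too small to compare between libraries.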
